A study of Homo sapiens with 6 samples.

Results

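NF-kB is a family of transcription factors, and the 43 genes described here are its subunits, their inhibitors, the kinases and adaptors that lead to them, and a set of their target genes. They were taken from the count table by gene name. The table holds 44 identifiers for these 43 names among 58735 in all, because SOD2 has a second identifier with 2 counts over all libraries. Of the 44, 38 had enough counts to be tested, among 15726 tested genes. By the classes used for the comparison, 16 of the 44 belong to the canonical pathway, 5 to the non-canonical pathway, 10 are cytokines and 13 are other regulators or targets. These classes follow textbook roles, and some members, such as BIRC3 and TRAF3, also act elsewhere in the pathway.

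The libraries were bulk RNA sequencing of total RNA from NCI-N87, an established human gastric cancer cell line of epithelial origin. In 3 libraries the cells had received PLVX-IRES-Puro-EGLN3, a puromycin-selectable plasmid that expresses EGLN3, and in 3 the same plasmid without the insert (the empty vector). All 6 were under puromycin for 7 days. The treatment label gives 1 day with the plasmid before selection for 5 of them and 5 days for EGLN3 replicate 3. The labels do not say whether replicates were separate transfections or cultures, so the p-values may measure technical spread only, and whether the selected cells were a pool or 1 clone is not stated in the sources used here. The EGLN3 protein (PHD3) hydroxylates prolines, with the HIF transcription factors as its best known substrates, and it has been studied in connection with NF-kB as well.

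In resting cells the NF-kB dimers are held in the cytoplasm by IkB proteins. In the canonical pathway a receptor such as that for TNF recruits TRAF and cIAP proteins and the kinase RIPK1, the TAK1 complex turns on the IKK complex, IKK marks the IkB proteins for breakdown, and dimers that contain RELA or REL enter the nucleus. In the non-canonical pathway the kinase NIK (MAP3K14) accumulates when TRAF3 and the cIAPs stop removing it, and the precursor made from NFKB2 is cut to p52, which pairs with RELB. Much of this control acts on proteins, which RNA levels do not measure. The transcriptional part is a feedback: NFKBIA, TNFAIP3, BIRC3, RELB, NFKB2 and chemokines such as CXCL8 are themselves well known targets of NF-kB, which is why their RNA is often read as a sign of its activity.

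NF-kB dimers bind kappaB sites, and many of these genes carry such letters close to their start. In RefSeq windows of 300 bases (250 before to 50 after each start, GRCh38.p14), 38 of the 43 genes had at least 1 window, 61 windows in all. The letters GGGNNNTTCC on either strand were present for 18 of these 38 genes, against 7.83% of 27305 genes and 6.52% of 35116 windows in the same table. The shorter run GGAATTTCC, which can overlap the first, was present for 10 of the 38, against 0.56% of genes and 0.461% of windows. A match is a description of letters and shows no binding. Stretches of 60 bases are shown for 3 feedback genes, for the subunit gene REL, for 4 chemokines and for IL6, with the matched letters in capitals, 5′ to 3′ on the strand of the gene.

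NFKBIA: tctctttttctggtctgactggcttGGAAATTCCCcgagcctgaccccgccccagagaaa
TNFAIP3: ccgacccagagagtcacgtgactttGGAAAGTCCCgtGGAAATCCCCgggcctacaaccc
BIRC3: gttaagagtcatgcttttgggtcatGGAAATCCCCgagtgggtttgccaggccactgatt
REL: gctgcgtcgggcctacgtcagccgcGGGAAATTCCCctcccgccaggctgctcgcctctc
CXCL1: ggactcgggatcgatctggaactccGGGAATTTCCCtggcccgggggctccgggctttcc
CXCL2: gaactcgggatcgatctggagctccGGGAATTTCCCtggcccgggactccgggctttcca
CXCL3: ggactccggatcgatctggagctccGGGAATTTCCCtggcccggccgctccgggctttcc
CXCL8: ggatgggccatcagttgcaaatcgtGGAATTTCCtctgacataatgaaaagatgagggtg
IL6: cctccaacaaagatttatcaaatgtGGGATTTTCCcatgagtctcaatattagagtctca

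In GRCh38.p14 these stretches lie at chr14:35404796-35404855 (minus strand) for NFKBIA, chr6:137867167-137867226 (plus strand) for TNFAIP3, chr11:102317260-102317319 (plus strand) for BIRC3, chr2:60881502-60881561 (plus strand) for REL, chr4:73869289-73869348 (plus strand) for CXCL1, chr4:74099239-74099298 (minus strand) for CXCL2, chr4:74038734-74038793 (minus strand) for CXCL3, chr4:73740453-73740512 (plus strand) for CXCL8 and chr7:22727102-22727161 (plus strand) for IL6. The capitals mark GGGNNNTTCC or its reverse complement, and in CXCL8 they mark GGAATTTCC. TNFAIP3 holds the motif in 2 separate places in its stretch. In REL, CXCL1, CXCL2 and CXCL3 matches on both strands overlap, so their capitals run longer than the motif. Of their 60 bases the CXCL1 and CXCL3 stretches share 56 position by position, CXCL1 and CXCL2 share 49, and CXCL2 and CXCL3 share 48. These counts allow no gaps. The end of the CXCL2 stretch matches the ends of the CXCL1 and CXCL3 stretches only when shifted, which lowers its counts.

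**Figure D1:**
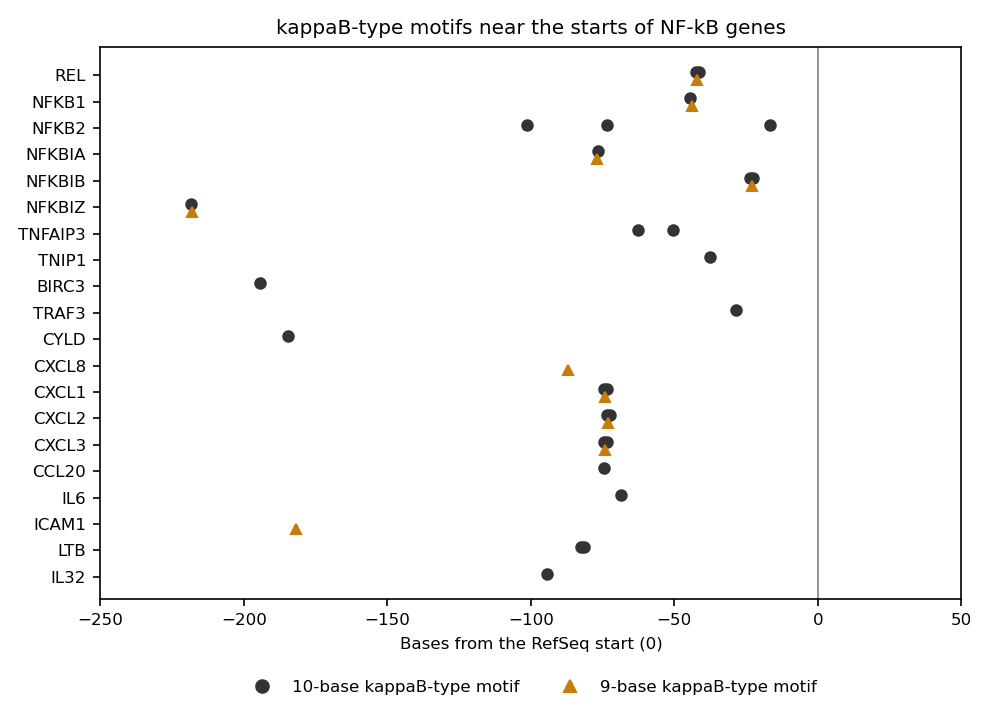
Positions of the kappaB-type letters in the RefSeq windows, with bases from the gene's start on the horizontal axis (0 is the start) and 1 row per gene. Circles mark GGGNNNTTCC and triangles GGAATTTCC on either strand, and every match lies before the start.

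The targeted gene and the libraries bear on all values below. EGLN3 itself had 7298, 27674 and 27494 counts in EGLN3 libraries 1, 2 and 3, against 10, 11 and 9 in the empty vector libraries, a log2 fold change of 11.00 (SE 0.72; edgeR's quasi-likelihood test, Benjamini-Hochberg adjusted p = 0.031). That call was lost when any library other than EGLN3 replicate 1 was left out (10.73 to 11.12, adjusted p = 0.065 to 0.67). These reads may come from the plasmid or the cell's own gene. Totals ran from 15157265 to 16767383 counts per library. The first principal component of log2 CPM (counts scaled to library size, after TMM scaling) held 70.0% of the variance over all tested genes, and it did not follow the groups: EGLN3 replicate 1 lay at 59.4 and replicates 2 and 3 at -23.3 and -45.9, while the empty vector libraries lay at -36.2, 11.5 and 34.4. EGLN3 replicate 1 also had the lowest EGLN3 count of its group and the highest share of mitochondrial counts, 6.99%, where EGLN3 replicates 2 and 3 had 5.71% and 5.57% and the empty vector libraries 5.25% to 6.48%. Summed markers of the gastric epithelial list lay between 33228 and 53068 CPM with EGLN3 and between 38276 and 46888 CPM with the empty vector. KRT8, KRT18, KRT19 and ERBB2 hold most of these sums, while CLDN18 and TFF1 were under 1 CPM. Leukocyte markers summed to 1.78 to 3.96 CPM with EGLN3 and 2.36 to 2.97 CPM with the empty vector, with FCGR3A at 0 in every library. Fibroblast markers summed to 3.89 to 4.62 CPM with EGLN3 and 4.77 to 5.52 CPM with the empty vector (COL1A2 and LUM at 0), and endothelial markers to 1.19 to 2.12 CPM with EGLN3 and 1.79 to 2.13 CPM with the empty vector. The fibroblast sums of the groups do not overlap. COL1A1 holds most of them, and their part in the results was not tested. In bulk RNA, a smaller share of cells with a transcript and less of it per cell cannot be told apart.

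The comparison asks which NF-kB genes had different RNA levels in cells with the EGLN3 plasmid. With edgeR's quasi-likelihood test, none of the 38 tested members had an adjusted p under 0.05. Of all tested genes 0.00636% passed, which is EGLN3 alone. No member had an unadjusted p under 0.05, where 1.11% of all tested genes did, and DESeq2 and limma-voom also called 0 members. The fold changes were small in both directions, 20 positive and 18 negative, from -0.38 for IKBKG (SE 0.28) to 0.53 for BIRC3 (SE 0.24). Their median was 0.013, beside 0.010 over all tested genes.

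The libraries of a group differed widely, with a common dispersion of 0.0589 in that fit. A fit that adds 1 surrogate variable, an axis estimated from the counts themselves, and takes out each library's trend on GC content and gene length had a common dispersion of 0.00216, and in it 2 members had an adjusted p under 0.05. Both, BIRC3 and RELB, were higher with EGLN3 and both belong to the non-canonical class. The classes were chosen with earlier results of these data known, and whether the shared class matters was not tested. In this adjusted fit 0.305% of all tested genes were higher and 0.89% lower at that threshold. At an unadjusted p under 0.05 it had 6 of the 38 members, against 13.5% of all tested genes. With the surrogate variable alone, BIRC2 and BIRC3 were higher, where 1.1% of all tested genes were higher and 3.66% lower. The surrogate variable is computed from the same libraries, so these calls rest on a correction and not on more samples.

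**Figure D2:**
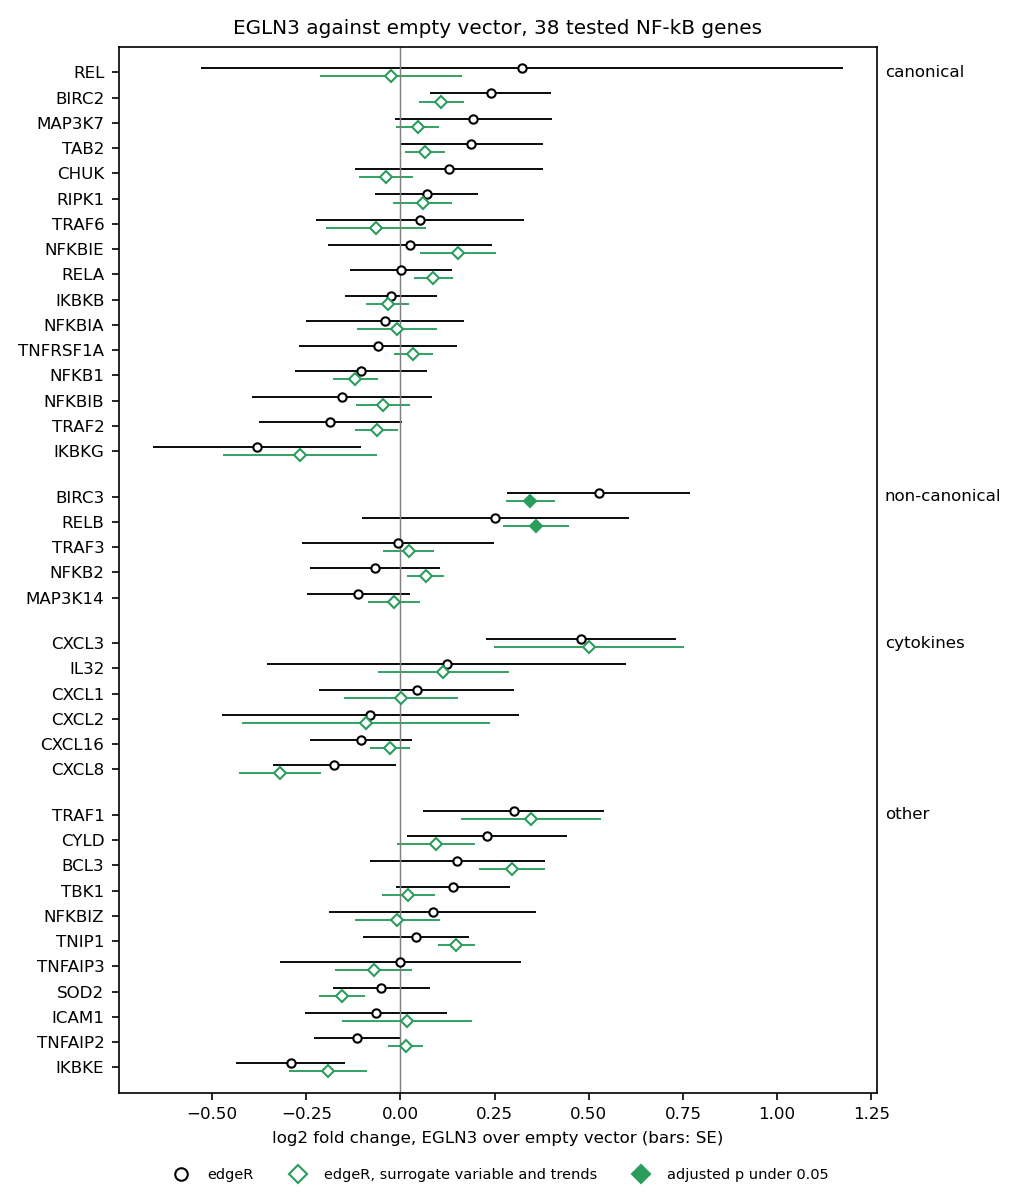
Log2 fold changes of EGLN3 over empty vector for the 38 tested genes, grouped by class, with bars of 1 SE. Black circles are edgeR without covariates and green diamonds the fit with 1 surrogate variable and trends on GC content and length; filled symbols have an adjusted p under 0.05, reached by BIRC3 and RELB in the adjusted fit only.

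To compare levels between genes the deposited FPKM, which are per length, were used. TNFAIP2, a TNF-induced gene, had the highest group means, at 27.3 ± 0.575 FPKM with EGLN3 and 29.5 ± 1.32 FPKM with the empty vector (SD, n = 3 each, here and below). The TNF receptor gene TNFRSF1A had 24.0 ± 5.50 FPKM with EGLN3 and 24.9 ± 4.25 FPKM with the empty vector, and the chemokine gene CXCL16 had 23.0 ± 2.43 FPKM with EGLN3 and 24.7 ± 1.79 FPKM with the empty vector. NFKB2 had 22.0 ± 3.95 FPKM with EGLN3 and 23.0 ± 2.87 FPKM with the empty vector, and RELA had 21.0 ± 1.92 FPKM with EGLN3 and 20.9 ± 1.998 FPKM with the empty vector. The order of the last 4 genes is within the spread between libraries, and so is that of TNFAIP2 and TNFRSF1A: in EGLN3 replicate 1 TNFRSF1A was above TNFAIP2, at 30.3 against 27.4 FPKM. At the low end of the tested genes TRAF1 had 0.751 ± 0.112 FPKM with EGLN3 and 0.609 ± 0.152 FPKM with the empty vector. LTB, IL6, TNF, CCL20 and CD40 were not detectable at this depth beyond 0 to 2 counts per library, where 3 counts, the limit that a count of 0 allows, correspond to 0.179 to 0.198 CPM. No fold change is given for them.

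**Figure D3:**
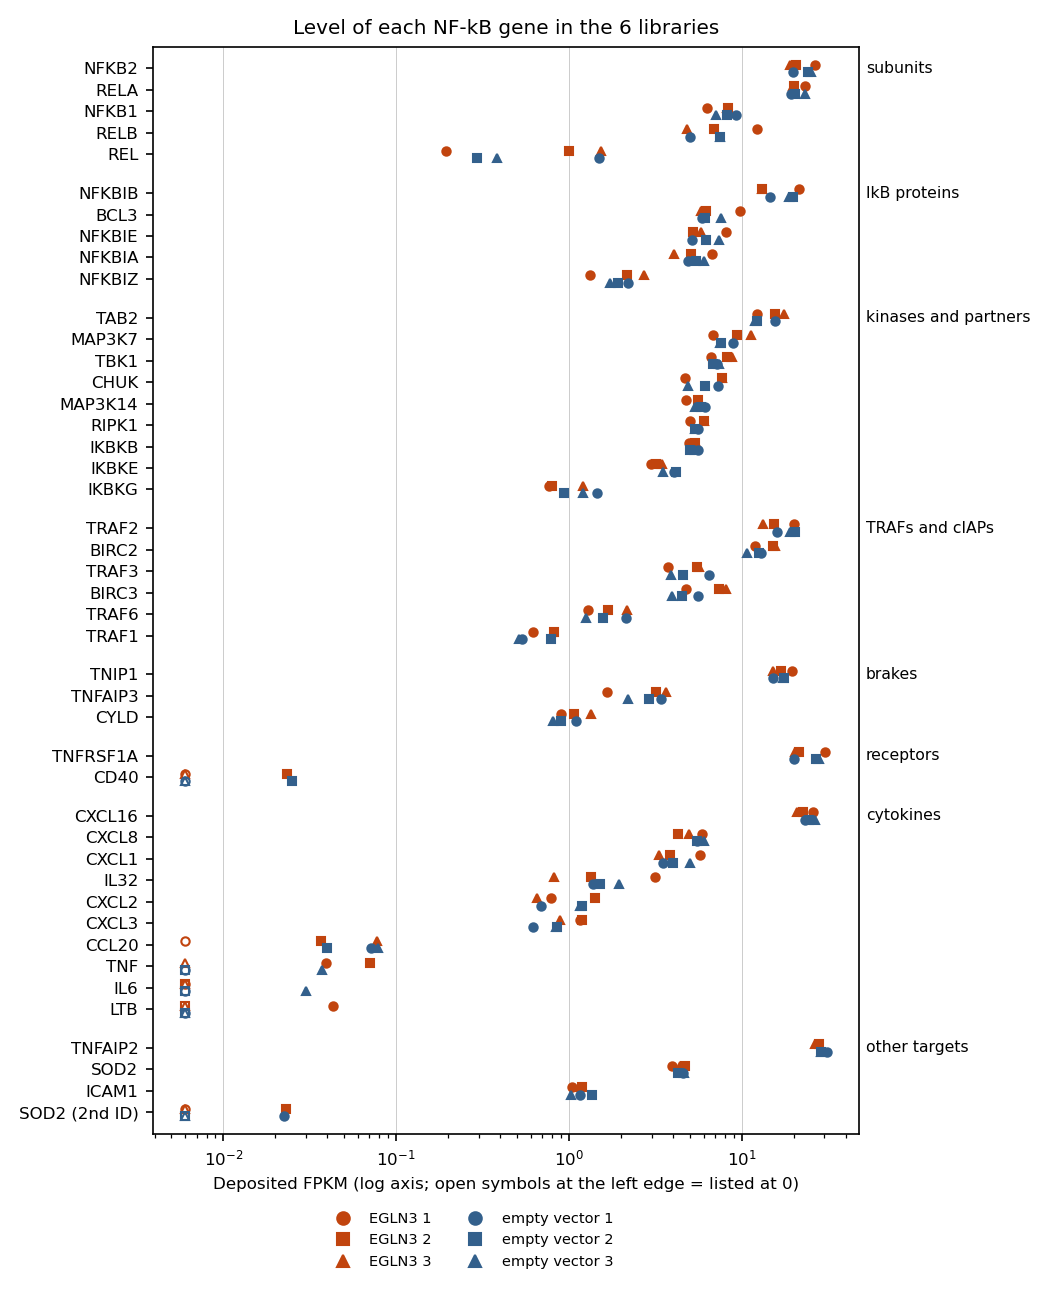
Deposited FPKM (log axis) of each of the 44 identifiers in the 6 libraries, grouped by role, with EGLN3 libraries in orange above empty vector libraries in blue. Open symbols at the left edge are values listed at 0; among the tested genes REL has the widest spread, with high and low libraries in both groups.

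Of the subunits, RELA (p65), the main activating subunit of the canonical dimer, had 127, 109.7 and 110.3 CPM in EGLN3 replicates 1, 2 and 3, against 107, 112 and 128 CPM in empty vector replicates 1, 2 and 3. The groups overlapped fully, and the log2 fold change was 0.00017 (SE 0.14). NFKB1, which encodes p105 and its product p50, had 39.6, 52.7 and 52.3 CPM with EGLN3 and 58.8, 51.7 and 45.0 CPM with the empty vector, with EGLN3 replicate 1 lowest of all (log2 fold change -0.10, SE 0.17). NFKB2 ran the other way in that library, at 119, 93.5 and 86.0 CPM with EGLN3, highest in replicate 1, against 90.0, 109.6 and 113 CPM with the empty vector, and had a log2 fold change of -0.068 (SE 0.17).

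RELB, the partner of p52, lies on chromosome 19 (45001430 to 45038198 in the deposited table, plus strand). It had 37.3, 21.0 and 14.9 CPM in EGLN3 replicates 1, 2 and 3, against 15.5, 23.0 and 22.9 CPM in the empty vector libraries. Its highest and its lowest value both belong to the EGLN3 group, so that the empty vector libraries lie between them. The log2 fold change was 0.25 (SE 0.35, adjusted p = 0.9999 in edgeR's quasi-likelihood test) and 0.36 (SE 0.088, adjusted p = 0.039) in the adjusted fit, while with the surrogate variable alone the adjusted p was 0.14. In the adjusted fit the call was lost without EGLN3 replicate 1 (0.34, adjusted p = 0.40), EGLN3 replicate 2 (0.31, adjusted p = 0.17), empty vector replicate 1 (0.37, adjusted p = 0.051) or empty vector replicate 3 (0.28, adjusted p = 0.18). In edgeR without covariates, leaving out EGLN3 replicate 1 gave a log2 fold change of -0.17, and leaving out EGLN3 replicate 3 gave 0.51.

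REL (c-Rel), better known from lymphocytes, varied most of all members. It had 2.57, 13.2 and 20.6 CPM with EGLN3 and 20.1, 3.89 and 5.08 CPM with the empty vector, from counts of 39, 223 and 330 with EGLN3 and 345, 61 and 81 with the empty vector. EGLN3 replicate 1 and empty vector replicates 2 and 3 were low, and the other 3 libraries were high, so the split crosses the groups. The highest value was 8.01 times the lowest, and REL ranked 71 of 15726 genes in the standard deviation of log2 CPM within groups. Its log2 fold change was 0.32 with an SE of 0.85, and -0.024 (SE 0.19) in the adjusted fit. In edgeR without covariates it ran from -0.29 without EGLN3 replicate 3 to 1.43 without empty vector replicate 1, and was 0.81 without EGLN3 replicate 1, so neither its size nor its sign holds when 1 library is left out.

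**Figure D4:**
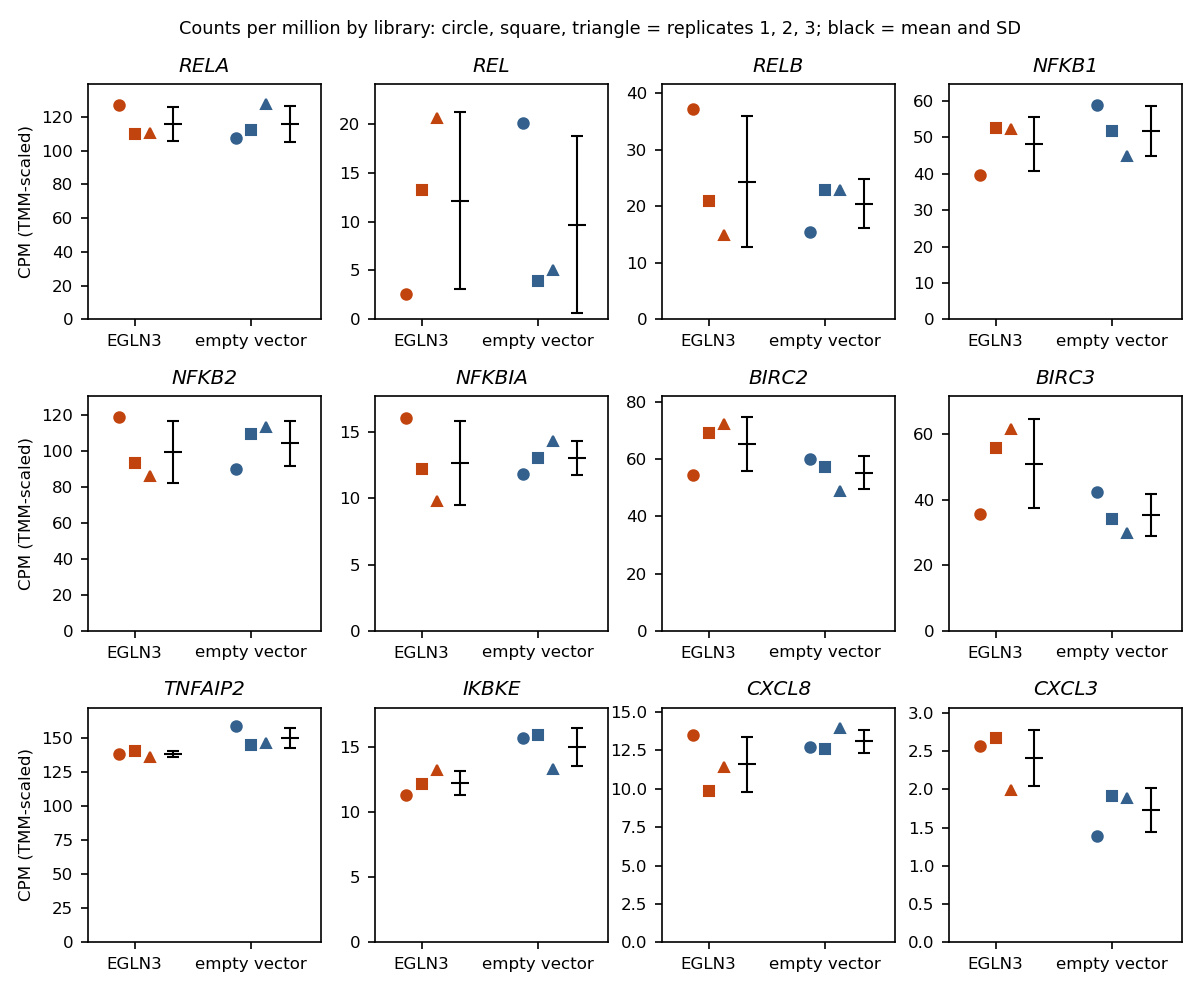
CPM after TMM scaling for 12 members, EGLN3 libraries in orange on the left of each panel and empty vector libraries in blue on the right, with the mean and SD in black (n = 3 each). Circles are replicate 1, squares replicate 2 and triangles replicate 3; TNFAIP2, IKBKE and CXCL3 are the members whose groups do not overlap.

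The IkB proteins include NFKBIA, the classical feedback inhibitor, at 16.1, 12.2 and 9.80 CPM with EGLN3 and 11.8, 13.0 and 14.4 CPM with the empty vector. Both its highest and its lowest value were in the EGLN3 group, and its log2 fold change was -0.041 (SE 0.21). NFKBIB and NFKBIE, which hold RELA dimers back in the same way, averaged 37.3 ± 11.2 and 16.5 ± 3.80 CPM with EGLN3, and 41.5 ± 6.31 and 16.2 ± 2.85 CPM with the empty vector. NFKBIZ, a nuclear IkB that helps to switch on secondary targets, had 7.85, 12.9 and 16.3 CPM with EGLN3 against 13.1, 11.5 and 10.3 CPM with the empty vector. BCL3, a nuclear IkB that works with p50 and p52, had 31.8, 20.3 and 19.0 CPM with EGLN3 and 19.4, 20.0 and 24.6 CPM with the empty vector, EGLN3 replicate 1 standing above the rest. Its log2 fold change was 0.15 (SE 0.23), and in the adjusted fit 0.30 (SE 0.087, adjusted p = 0.097), which does not pass. Without EGLN3 replicate 1 the value in edgeR without covariates was -0.10. Taking the 5 IkB genes, 3 fold changes were positive and 2 negative, with a median of 0.026.

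Among the kinases and their partners, 5 of 9 fold changes were positive and 4 negative, with a median of 0.070. IKBKB (IKK beta), the kinase that marks NFKBIA, had 55.7, 60.6 and 61.8 CPM with EGLN3 and 63.8, 56.8 and 60.8 CPM with the empty vector. It was among the steadiest members, its highest value 1.14 times its lowest. CHUK (IKK alpha), which serves both pathways, averaged 46.8 ± 12.3 CPM with EGLN3 and 42.8 ± 8.59 CPM with the empty vector. IKBKG (NEMO), the scaffold of the IKK complex, had 2.70, 2.85 and 4.31 CPM with EGLN3 and 5.24, 3.32 and 4.27 CPM with the empty vector, the lowest fold change of the members at -0.38 (SE 0.28, adjusted p = 0.9999).

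The TAK1 kinase gene MAP3K7 had 49.5, 68.0 and 82.7 CPM with EGLN3 and 65.0, 55.3 and 54.8 CPM with the empty vector, and TAB2, which links TAK1 to ubiquitin chains, had 73.6, 94.2 and 107 CPM with EGLN3 and 94.8, 73.8 and 72.6 CPM with the empty vector. In both genes EGLN3 replicate 3 was the highest of the 6 libraries. RIPK1, the kinase at the TNF receptor, averaged 24.4 ± 2.77 CPM with EGLN3 and 23.2 ± 0.602 CPM with the empty vector. MAP3K14 (NIK), the kinase that starts the non-canonical pathway, had 27.6, 32.4 and 33.3 CPM with EGLN3 and 36.0, 33.7 and 31.2 CPM with the empty vector, a log2 fold change of -0.11 (SE 0.14). TBK1 averaged 37.8 ± 5.56 CPM with EGLN3 and 34.3 ± 1.62 CPM with the empty vector. IKBKE, the relative of TBK1 in interferon and NF-kB signalling, had 11.3, 12.2 and 13.2 CPM in EGLN3 replicates 1, 2 and 3, all below the 15.7, 16.0 and 13.3 CPM of the empty vector libraries, although EGLN3 replicate 3 and empty vector replicate 3 nearly meet. Its log2 fold change was -0.29 (SE 0.15, unadjusted p = 0.086 and adjusted p = 0.9999, edgeR's quasi-likelihood test), and -0.19 (SE 0.10, adjusted p = 0.44) in the adjusted fit.

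BIRC3 and BIRC2 encode the ubiquitin ligases cIAP2 and cIAP1, which act with TRAF2 and TRAF3 to remove NIK and which also modify RIPK1 at the TNF receptor. BIRC3 lies on chromosome 11 (102317450 to 102339403 in the deposited table, plus strand) and had 35.7, 55.9 and 61.5 CPM in EGLN3 replicates 1, 2 and 3, against 42.4, 34.0 and 29.9 CPM in the empty vector libraries. EGLN3 replicates 2 and 3 were above all empty vector libraries, while EGLN3 replicate 1 lay between empty vector replicates 1 and 2, so the groups overlapped. It averaged 51.0 ± 13.6 CPM with EGLN3 and 35.4 ± 6.39 CPM with the empty vector (SD, n = 3 each). The log2 fold change was 0.53 (SE 0.24, unadjusted p = 0.070, adjusted p = 0.9999, edgeR's quasi-likelihood test), 0.46 with the surrogate variable (adjusted p = 0.00034) and 0.34 (SE 0.065, adjusted p = 0.0059) in the adjusted fit. Its sign was positive in all 26 alternatives. The call of the adjusted fit was lost without EGLN3 replicate 1 (0.38, adjusted p = 0.052) or EGLN3 replicate 2 (0.30, adjusted p = 0.059), and with any other library left out the adjusted p ran from 0.00068 to 0.032.

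BIRC2 had 54.5, 69.0 and 72.1 CPM with EGLN3 and 59.8, 57.1 and 48.8 CPM with the empty vector, with EGLN3 replicate 1 again inside the range of the empty vector. Its log2 fold change was 0.24 (SE 0.16), with the surrogate variable 0.21 (adjusted p = 0.044), and in the adjusted fit 0.11 (adjusted p = 0.45). Of the 50-base pieces of the longest BIRC3 transcript 0.214% also occur in that of BIRC2, so few reads could be split between them. The adaptor gene TRAF2 had 73.9, 56.7 and 49.2 CPM with EGLN3 and 59.5, 75.3 and 69.8 CPM with the empty vector, and TRAF3 had 30.9, 46.1 and 47.5 CPM with EGLN3 and 54.3, 38.2 and 32.5 CPM with the empty vector. The groups overlapped for both, and the log2 fold changes were -0.19 (SE 0.19) for TRAF2 and -0.0062 (SE 0.25) for TRAF3. TRAF6, the adaptor for Toll-like and interleukin-1 receptors, averaged 8.44 ± 2.21 CPM with EGLN3 and 8.14 ± 2.22 CPM with the empty vector. TRAF1, itself an NF-kB target, had 4.02, 5.33 and 5.31 CPM with EGLN3 and 3.49, 5.11 and 3.33 CPM with the empty vector, a log2 fold change of 0.30 (SE 0.24) with overlapping groups.

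None of the 3 brakes of the pathway was called in either fit. TNFAIP3 (A20), a ubiquitin-editing enzyme and a feedback target, had 8.44, 16.1 and 18.7 CPM with EGLN3 and 17.4, 14.7 and 11.2 CPM with the empty vector, and its means were 14.4 ± 5.35 CPM with EGLN3 and 14.4 ± 3.12 CPM with the empty vector. EGLN3 replicates 1 and 3 held its lowest and highest values. TNIP1, a partner of A20, had 113, 98.0 and 89.7 CPM with EGLN3 and 88.8, 102 and 101 CPM with the empty vector, and in the adjusted fit a log2 fold change of 0.15 (SE 0.049, adjusted p = 0.15). CYLD, a deubiquitinase, averaged 14.4 ± 3.10 CPM with EGLN3 and 12.3 ± 2.05 CPM with the empty vector. Of the 2 receptor genes, TNFRSF1A (the TNF receptor 1) had 122, 85.8 and 83.1 CPM with EGLN3 against 81.9, 108 and 113 CPM with the empty vector, with EGLN3 replicate 1 highest and the others overlapping, and CD40 had at most 1 count per library.

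Of the 10 cytokine genes 6 could be tested. IL6, TNF, LTB and CCL20, inflammatory targets or ligands of NF-kB, had counts of 0, 0 and 0 for IL6, 1, 2 and 0 for TNF, 1, 0 and 0 for LTB and 0, 1 and 2 for CCL20 in EGLN3 replicates 1, 2 and 3. The empty vector libraries had 0, 0 and 1 for IL6, 0, 0 and 1 for TNF, 0, 0 and 0 for LTB and 2, 1 and 2 for CCL20. CXCL8 (interleukin 8), a neutrophil chemokine, had 13.5, 9.84 and 11.4 CPM with EGLN3 and 12.7, 12.6 and 13.9 CPM with the empty vector. EGLN3 replicates 2 and 3 lay below all empty vector libraries and replicate 1 among them. The log2 fold change was -0.18 (SE 0.16), and in the adjusted fit -0.32 (SE 0.11, unadjusted p = 0.0067, adjusted p = 0.16, edgeR's quasi-likelihood test), which does not pass.

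CXCL1, CXCL2 and CXCL3 are neighbouring chemokine genes on chromosome 4 that act on the same receptor. CXCL3 had 2.57, 2.67 and 1.998 CPM in EGLN3 replicates 1, 2 and 3, all above the 1.40, 1.92 and 1.88 CPM of the empty vector libraries. Its log2 fold change was 0.48 (SE 0.25, unadjusted p = 0.10 and adjusted p = 0.9999, edgeR's quasi-likelihood test), and 0.50 (SE 0.25, adjusted p = 0.40) in the adjusted fit. Its counts were low, at 39, 45 and 32 with EGLN3 and 24, 30 and 30 with the empty vector. CXCL1 had 7.45, 5.04 and 4.37 CPM with EGLN3 and 4.60, 5.24 and 6.53 CPM with the empty vector, and CXCL2 had 1.19, 2.13 and 0.999 CPM with EGLN3 and 1.05, 1.79 and 1.76 CPM with the empty vector, both with overlapping groups. The log2 fold changes were 0.043 (SE 0.26) for CXCL1 and -0.080 (SE 0.39) for CXCL2. Transcripts of CXCL2 share 5.13% of their 50-base pieces with CXCL1 and 4.11% with CXCL3, so a few reads of these genes could have been split or dropped in the counting.

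CXCL16, a chemokine that is also a membrane protein, was the most abundant of the class by FPKM and had 71.9, 63.2 and 59.3 CPM with EGLN3 and 65.5, 68.6 and 74.9 CPM with the empty vector (log2 fold change -0.11, SE 0.14). IL32 had 10.2, 4.33 and 2.68 CPM with EGLN3 and 4.48, 4.92 and 6.34 CPM with the empty vector. Its range within the EGLN3 group, 3.78-fold, covered every empty vector value, and the log2 fold change was 0.12 (SE 0.48).

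The other targets were TNFAIP2, SOD2 and ICAM1. TNFAIP2 had 138, 141 and 136 CPM in EGLN3 replicates 1, 2 and 3, below the 158, 145 and 146 CPM of the empty vector libraries. The groups did not overlap, yet the log2 fold change was -0.12 (SE 0.11, unadjusted p = 0.35 and adjusted p = 0.9999, edgeR's quasi-likelihood test) and 0.013 (SE 0.048) in the adjusted fit, where the sign turned. SOD2, the mitochondrial superoxide dismutase, had 65.0, 77.8 and 73.1 CPM with EGLN3 and 76.4, 70.6 and 76.6 CPM with the empty vector. In the adjusted fit its log2 fold change was -0.15 (SE 0.061, adjusted p = 0.24), and the gene shares 19602 bases with WTAP on the other strand. ICAM1, an adhesion molecule, averaged 4.24 ± 0.301 CPM with EGLN3 and 4.43 ± 0.642 CPM with the empty vector.

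Counted by separation alone, 1 of the 38 members (CXCL3) was higher in every EGLN3 library than in every empty vector library, and 2 (IKBKE and TNFAIP2) were lower. Over all tested genes 2.64% were higher and 3.62% lower in this sense.

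By class, the canonical members had 9 positive and 7 negative fold changes with a median of 0.013, and the non-canonical members 2 positive and 3 negative with a median of -0.0062. The 6 tested cytokines had 3 of each sign with a median of -0.018, and the 11 tested other members 6 positive and 5 negative with a median of 0.041. In the adjusted fit the medians were -0.016 for the canonical, 0.067 for the non-canonical, -0.013 for the cytokine and 0.017 for the other members, beside -0.014 over all tested genes. Besides the 2 called genes, the other non-canonical genes in that fit were NFKB2 at 0.067 (SE 0.049), TRAF3 at 0.022 (SE 0.067) and MAP3K14 at -0.017 (SE 0.068).

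Partners in the pathways were also set against each other within each library, as 4 log2 ratios of CPM chosen after the values were seen. The log2 ratio of BIRC3 to BIRC2 was -0.61, -0.30 and -0.23 in EGLN3 replicates 1, 2 and 3, and -0.50, -0.75 and -0.71 in empty vector replicates 1, 2 and 3. The mean difference was 0.27, EGLN3 minus empty vector, with only EGLN3 replicate 1 inside the range of the empty vector (exact permutation test, two-sided, p = 0.2, adjusted over the 4 ratios p = 0.8; the smallest p that 3 against 3 allows is 0.1). For RELB to RELA the mean difference was 0.17 (exact permutation p = 0.8) and for NFKB2 to NFKB1 it was 0.034 (exact permutation p = 1). For REL to RELA it was 0.27 (exact permutation p = 1), with the spread of REL described above.

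The members' variation between libraries can be read along the first axis. By their loadings 16 of the 38 went with EGLN3 replicate 1, among them IL32, RELB, NFKBIB, CXCL1 and BCL3, and 22 went the other way, with REL, TNFAIP3, NFKBIZ and BIRC3 farthest out. The 16 had a median GC content of 58.1% and a median gene length of 2914.5 bases, and the 22 had 47.8% and 5956 bases. EGLN3 replicate 1 held the highest or the lowest value of 24 of the 38 members, 63.2%, and of 62.8% of all tested genes. The classes were mixed along this axis: NFKB2 and RELB lay on 1 side of it and BIRC3, TRAF3 and MAP3K14 on the other. Whether the axis reflects cell state or library preparation was not tested.

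**Figure D5:**
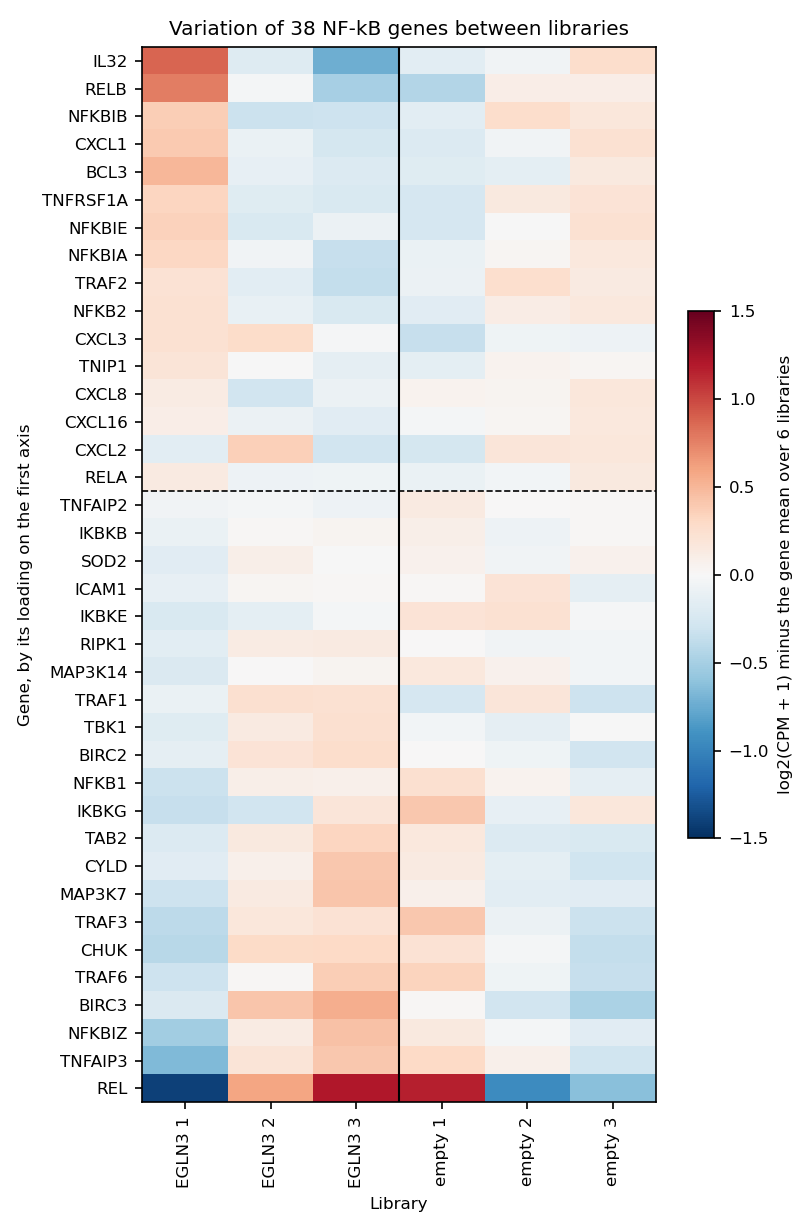
Deviation of log2(CPM + 1) from the gene's mean over the 6 libraries (red above, blue below) for the 38 tested genes, ordered by loading on the first axis, with EGLN3 libraries left of the vertical line. The dashed line parts the 16 genes that go with EGLN3 replicate 1 from the 22 that go the other way; the colours split EGLN3 replicate 1 and empty vector replicates 2 and 3 from the rest more than they split the groups.

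The letters near the start can be set beside the comparison. The 15 tested members with GGGNNNTTCC in a window had a median log2 fold change of 0.041, 8 positive and 7 negative, and the 19 without it had 0.0002, 10 positive and 9 negative. In the adjusted fit the medians stood in the other order, 0.0015 with the motif and 0.0171 without it. For neighbouring genes in the annotation, 21 of the 44 identifiers overlap another gene, and for 9 of them the partner has a mean of at least 1 CPM. These include RELA, NFKBIB, CHUK, CXCL16, TNFAIP3, MAP3K14 and SOD2, and without stated strand use their reads cannot be told apart from their partners' in the shared bases.

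Other genes of the pathway were read from 2 further lists that hold none of the 43. Of 45 signalling genes all were tested, with 26 positive and 19 negative fold changes and a median of 0.058, and edgeR without covariates called 0 of them, with 1 at an unadjusted p under 0.05. Of 41 further targets 26 were tested, 12 positive and 14 negative with a median of -0.0063, and 0 were called, with 0 at an unadjusted p under 0.05.

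Of the 45 signalling genes, 2 were higher and 5 lower in every EGLN3 library than in every empty vector library. The shares over all tested genes were 2.64% higher and 3.62% lower. Among the 5 were TAB1 and IRAK1, a TAK1 partner and the kinase after interleukin-1 and Toll-like receptors. TAB1 had 40.9, 39.4 and 33.6 CPM with EGLN3 and 44.3, 49.4 and 48.0 CPM with the empty vector, and IRAK1 had 337, 322 and 285 CPM with EGLN3 and 362, 429 and 364 CPM with the empty vector. TANK, which binds TRAF proteins and TBK1, was higher in every EGLN3 library, at 34.2, 35.1 and 37.1 CPM, against 28.8, 29.2 and 31.7 CPM with the empty vector. Neither TAB1 (-0.32, SE 0.14), IRAK1 (-0.29, SE 0.14) nor TANK (0.25, SE 0.12) passed in edgeR without covariates or in the adjusted fit. With the surrogate variable alone 4 of the 45 signalling genes were called, all lower, among them CARD10, IRAK1 and TAB1. In that fit 1.1% of all tested genes were higher and 3.66% lower. The further targets with the smallest p were NUAK2 (-0.54, SE 0.25), CXCL5 (0.41, SE 0.23), TNFSF15 (0.26, SE 0.23) and CCL5 (0.27, SE 0.27), and none passed in any of these fits.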

How the data were processed

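Bulk RNA was sequenced from 3 EGLN3 and 3 empty vector libraries of NCI-N87, grouped by their titles. The deposited counts are whole reads per gene, with no scaling by the authors. The deposited FPKM values equal those counts divided by gene length and 1 factor per library, so the authors' FPKM are already scaled between libraries. Tools named in the submitters' processing notes are DESeq2 1.20.0, featureCounts 1.5.0-p3 and HISAT2 2.0.5, with the build hg38. How strand was used is not stated in those notes or the labels. All 6 columns of values were used in each table, and 0 were left unmapped.

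After filterByExpr and TMM scaling, counts of all remaining genes entered edgeR's quasi-likelihood test (edgeR 4.0.16, R 4.3.3, robust, no covariate) with Benjamini-Hochberg adjustment. An adjusted p under 0.05 is a call. The SE of a log2 fold change is its size over the square root of F. CPM are after TMM scaling, and FPKM served for levels between genes and for limma as an alternative. The adjusted fit adds 1 surrogate variable (sva 3.50.0) and each library's trend on GC content and gene length (splines with 5 degrees of freedom, GC content known for 99.96% of tested genes, from their longest transcript in GENCODE 29). Its residual degrees of freedom are 3, and those of the plain fit 4. Alternatives were DESeq2 1.42.0, limma-voom (limma 3.58.1), other scalings and filters, FPKM with pseudocounts of 1 and 0.1, the replicate block, and leaving out each library.

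Totals of 15157265 to 16767383 counts put 3 counts at 0.179 to 0.198 CPM, a limit for counting error only. No 2 libraries of a group agreed within sampling noise. Same-numbered libraries had correlations of -0.79, -0.18 and -0.67 between their deviations from the group means, so the numbers were not taken to pair them. The 43 members, their classes and the further lists were chosen with earlier results of these data known. The genes named are all members, EGLN3, and of each further list those called or else the 4 with the smallest p at a mean of at least 1 CPM. CARD10 was named after its values were seen, and some genes within the rule are not reported here. Promoter windows came from RefSeq by symbol, with no window for RELB, CXCL16, NFKBIE, CD40 and IKBKB in the table used here. The procedures were tested on simulated counts, made with and without a shared axis of variation between libraries. Recovery was required only of the counts without it, so that check does not cover the spread between libraries seen here.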

Additional observations from a re-analysis of the deposited data

How the results depend on the processing

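No member changed direction while called, and 35 of the 38 tested members were called in none of the 26 alternatives; the other 3 were BIRC2, BIRC3 and RELB. The sign was the same in all 26 for 12 members. Over the whole table, 1 gene was called in the main test, 0 with limma-voom, the replicate block, log2(FPKM + 1) and log2(FPKM + 1) without a filter, 749 with 1 surrogate variable and 188 in the adjusted fit. Leaving out 1 library gave 0 to 1 genes without covariates and 49 to 285 in the adjusted fit, a range of 0 to 285. Members called were 2 with the surrogate variable and 2 in the adjusted fit, and 0 to 2 with 1 library left out. In the adjusted fit none was called without EGLN3 replicate 1 or 2, where 5 and 8 members had an unadjusted p under 0.05, beside 1386 of 16129 and 1821 of 16101 genes. Of the other NF-kB genes 4 were called with the surrogate variable, 1 in the adjusted fit, and 0 to 2 with 1 library left out. With 1 library left out, the non-canonical median ran from -0.027 to 0.085 without covariates (-0.0062 with all libraries) and from 0.069 to 0.12 in the adjusted fit (0.067 with all libraries). EGLN3 lost its call with limma-voom (10.75), the replicate block (10.83; adjusted p = 0.26) and log2(FPKM + 1) with or without a filter (7.12), and with 1 library left out ran from 10.73 to 11.41 without covariates and from 10.38 to 11.34 in the adjusted fit, with its call lost without covariates unless EGLN3 replicate 1 was the library left out (adjusted p up to 0.67). The causes were not tested. The replicate block called 0 members, and the labels do not state that replicate numbers pair the libraries. Class medians kept within 0.19 of 0 throughout. Counts under 3 per library limit what can be said of IL6, TNF, LTB, CCL20 and CD40.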
